A study of Drosophila melanogaster with 6 samples.

Results

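Fragments of the lysine tRNAs were examined in small RNA libraries from the bodies of adult male Drosophila melanogaster, testes removed. Drosophila has a pair of lysine isoacceptors, tRNAs that carry the same amino acid and differ in their anticodon, written here as in the gene names: Lys-CTT and Lys-TTT. All listed sequences whose tRNA gene name ended in LysCTT or LysTTT were taken, and a sequence listed at several genes was counted once per library. This gave 19 of 297 listed tRNA genes, 13 of Lys-CTT (11 named for arm 2R and 2 for 3L) and 6 of Lys-TTT, and 193 of 3100 distinct sequences, 126 of Lys-CTT and 67 of Lys-TTT. They held 35922 of 199972 tRNA-derived reads, 27487 from Lys-CTT and 8435 from Lys-TTT. The mutant flies were homozygous for a Dnmt2 mutation (w1118; Dnmt2 mutant/Dnmt2 mutant) and the comparison flies heterozygous for it (w1118; +/Dnmt2 mutant), so no group was free of the mutation. The names of the deposited tables call the heterozygotes wild type, whereas the sample labels, followed here, do not. Control flies of 10 days had no heat shock, heat shock flies of 10 days had 1 h at 37 °C and 5 h at room temperature, and recovery flies of 12 days had 2 days after the heat shock. Each of the 6 groups had 1 library, made from 200 µg of total RNA. The labels name no separate cultures, and the p-values reflect no more than the scatter among these libraries. With each read counted once, there were 67477, 37463 and 5113 tRNA-derived reads for mutant control, heat shock and recovery, and 15337, 46060 and 28522 for the heterozygotes. The mutant recovery library was the shallowest. Recovery flies were also older, and the effects of age and of recovery cannot be told apart. In such bulk samples fewer cells of a type and less RNA per cell cannot be told apart either.

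A tRNA folds into an acceptor stem, a D arm, an anticodon arm and a T arm. The anticodon sits in a loop that nucleases can cut, which leaves 5′ and 3′ fragments, and tRNA cleavage is a known response to stress such as heat. Lys-CTT reads the codon AAG, and Lys-TTT reads AAA and, by wobble pairing, AAG. The first anticodon base of Lys-TTT is a uridine that is known from yeast and other eukaryotes to carry a thiol and a side chain. Dnmt2 methylates a cytosine at position 38 of the anticodon loop in Asp-GTC, Gly-GCC and Val-AAC tRNAs. Both lysine isoacceptors had A at position 38 in the gene sequences rebuilt from the reads, and so lack that target base.

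Overlapping reads rebuilt both lysine genes to 73 bases, with the anticodon at positions 34 to 36. Positions are counted from the first base of the tRNA. The rebuilt isoacceptors were identical at 80.8% of positions and differed at 14 of 73, of which 4 lay in the first 35 bases, at positions 7, 28, 29 and 34. The Lys-CTT genes shared their abundant sequences, so their reads could not be assigned to single genes. The 6 Lys-TTT genes fell into copies with A at position 7 (5 genes on 3R) and a copy with G there (1 gene on 2L), which 5′ reads tell apart. The main Lys-TTT fragments are shown because they carry both the copy difference and the end position described below. Capitals mark position 7 and, where the read reaches it, the first anticodon base at position 34:
Lys-TTT 1-33 A7: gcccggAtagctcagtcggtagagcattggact
Lys-TTT 1-34 A7: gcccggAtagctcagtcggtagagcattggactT
Lys-TTT 1-33 G7: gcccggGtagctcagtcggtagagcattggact
Lys-TTT 1-34 G7: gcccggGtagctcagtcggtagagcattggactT
These sequences were listed with 5709, 1390, 836 and 201 reads over the 6 libraries, in the order shown. The most listed 3′ sequence of Lys-TTT, with 15 reads in all, is shown for contrast, in lower case throughout:
Lys-TTT 42-73: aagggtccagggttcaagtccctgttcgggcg

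Lys-CTT was among the 3 most abundant of 48 isoacceptor features in every library, and Lys-TTT ranked 4 or 5. Lys-CTT made up 20.2%, 9.40% and 11.2% of tRNA-derived reads in mutant control, heat shock and recovery, against 9.53%, 9.43% and 13.9% in the heterozygotes. The mutant control library was the highest, and heterozygote recovery (95% Wilson interval 13.5 to 14.3) and mutant recovery (10.4 to 12.1) followed. The other 3 libraries had overlapping intervals, with mutant heat shock at 9.11 to 9.70, heterozygote control at 9.08 to 10.0 and heterozygote heat shock at 9.16 to 9.70. Lys-TTT made up 3.37%, 4.27% and 8.27% in the mutants, against 4.87%, 3.70% and 5.93% in the heterozygotes. Mutant recovery was the highest and mutant control, the highest library for Lys-CTT, was the lowest, and no neighbouring Lys-TTT intervals overlapped. These intervals cover counting error only, since reads without molecular identifiers are not independent molecules. With the correction for C read at A described below, Lys-TTT stood at 3.73% in mutant control and 3.70% in heterozygote heat shock. Mutant control was then not the lowest.

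**Figure D1:**
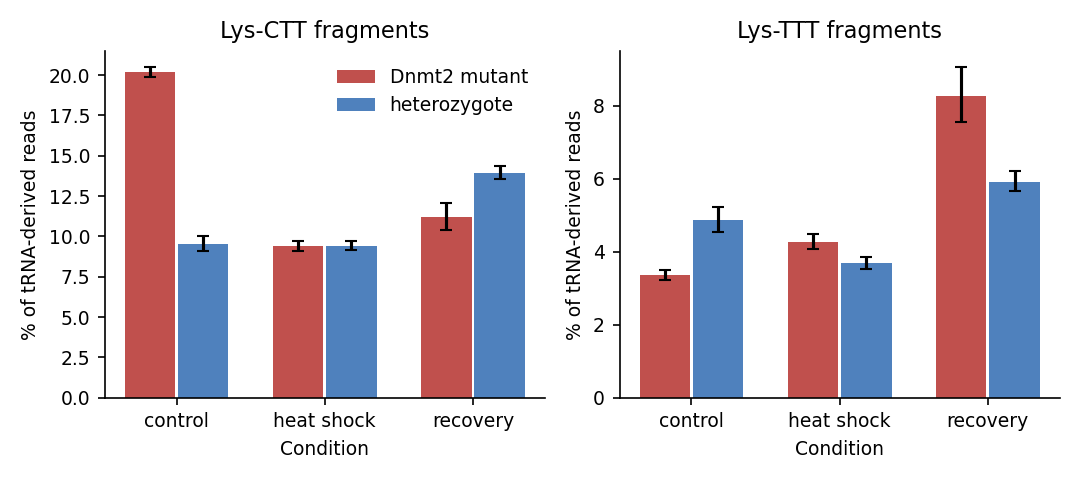
Lys-CTT (left) and Lys-TTT (right) fragments as a percentage of all tRNA-derived reads in each library, with 95% Wilson intervals and a separate y axis in each panel. Bars stand for single libraries. Before any correction for C read at A, the mutant control library is the highest for Lys-CTT, at 20.2%, and the lowest for Lys-TTT, at 3.37%.

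Within the lysine reads, the Lys-CTT share was 85.7%, 68.8% and 57.5% in mutant control, heat shock and recovery, against 66.2%, 71.8% and 70.2% in the heterozygotes. The mutant share was lower in each later condition, and the heterozygote shares stayed within 66.2% to 71.8%. The mutant share was 19.5 points higher in control flies, and the difference was -3.07 points after heat shock and -12.6 points in recovery, with a mean of 1.28 points. It was higher in 1 of 3 conditions, and the exact paired permutation p was 1, where 3 pairs cannot go below 0.25. A ratio of both isoacceptors within a library needs no scaling between libraries. On the log2 scale, Lys-CTT over Lys-TTT was 1.61 higher in mutants than heterozygotes in control flies (95% interval 1.47 to 1.76, counting error only). The same difference was -0.21 (-0.33 to -0.09) after heat shock and -0.80 (-1.0 to -0.59) in recovery. Heat shock over control changed the ratio by -1.45 (-1.55 to -1.34) in mutants and by 0.38 (0.23 to 0.53) in heterozygotes. Recovery over control changed it by -2.15 (-2.34 to -1.95) in mutants and by 0.26 (0.11 to 0.42) in heterozygotes, and recovery over heat shock by -0.70 and -0.12. With 1 library in each group these differences have no replicate check.

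**Figure D2:**
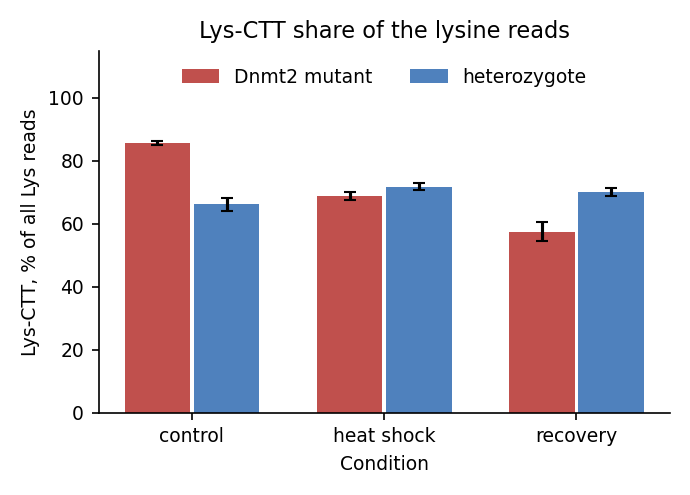
Lys-CTT reads as a percentage of all lysine tRNA reads in each library, with 95% Wilson intervals, for mutants (left bar of each pair) and heterozygotes. The mutant share is above the heterozygote share in control flies and below it after heat shock and in recovery.

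The isoacceptors differed in where their 5′ fragments ended. Almost all placed reads started at the first base of the tRNA, 97.5% to 99.1% of Lys-CTT reads and 98.3% to 99.5% of Lys-TTT reads. Lys-CTT 5′ fragments ended mainly at base 35, the middle base of the anticodon. This share was 86.4%, 84.0% and 78.2% in mutant control, heat shock and recovery, against 75.2%, 79.1% and 75.5% in the heterozygotes. Lys-TTT had no more than 0.661% of its 5′ fragments end there, with 0 of 418 in mutant recovery, which allows a share of up to 0.718%. Lys-TTT 5′ fragments ended mainly at base 33, the base before the anticodon, with 83.3%, 83.3% and 70.8% in the mutants against 80.2%, 76.3% and 70.7% in the heterozygotes. For Lys-CTT, base 33 was the next most used end, at 8.51% to 17.4%. Lys-TTT ended next most often at base 34, the first base of the anticodon, at 14.1% to 27.3%, whereas Lys-CTT ended there in 0.0969% to 0.259%.

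Over the 6 libraries, the end at base 35 averaged 79.7% ± 4.58 of Lys-CTT and 0.280% ± 0.264 of Lys-TTT 5′ fragments (SD, n = 6 libraries, of 6 different groups). The difference was 79.5 points, positive in 6 of 6 libraries (exact paired permutation test, 2-sided, p = 0.031, the smallest that 6 pairs allow, Benjamini-Hochberg 0.0625 over 10 measures). The end at base 33 averaged 12.9% ± 3.24 of Lys-CTT and 77.4% ± 5.81 of Lys-TTT, and the end at base 34 averaged 0.153% ± 0.0585 and 20.1% ± 5.59. Both were lower for Lys-CTT in 6 of 6 libraries, with the same exact p. Ranges of the isoacceptors did not overlap for any of the 3 ends. Base 35 was tested as the most used end of these same libraries, and no independent rule set the other ends, base 41 included. The adjustment does not cover that choice, so these p-values describe the libraries and are no independent test.

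**Figure D3:**
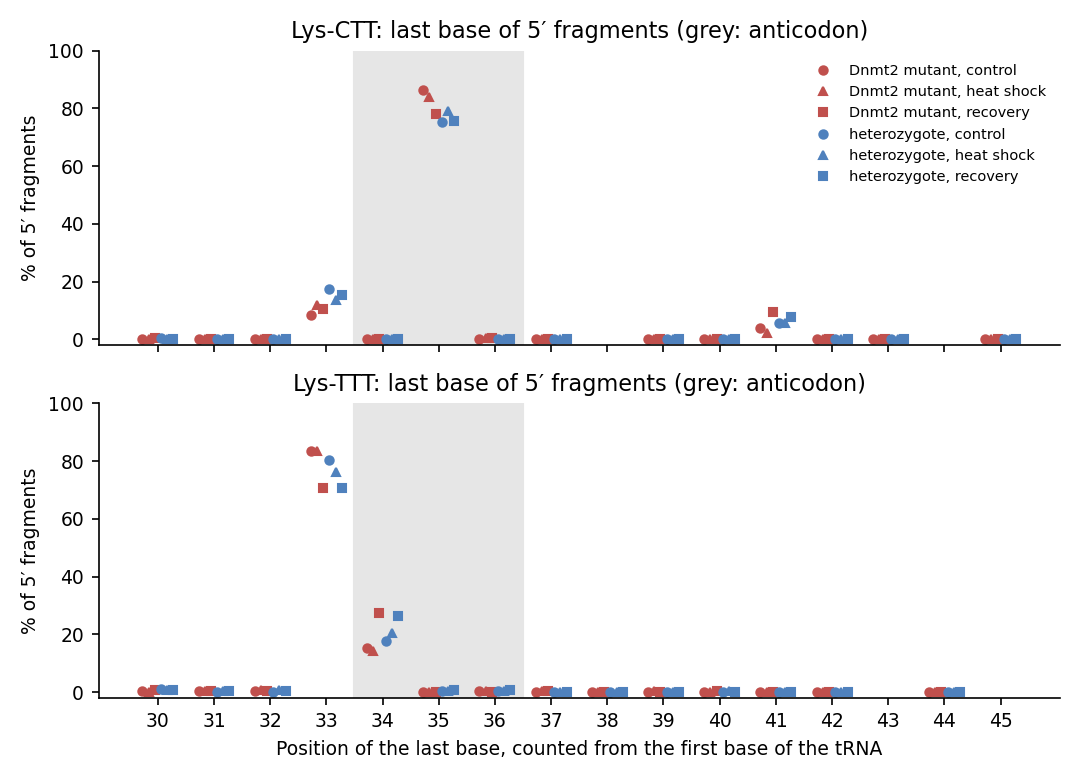
Percentage of 5′ fragments of Lys-CTT (top) and Lys-TTT (bottom) by the position of their last base, for bases 30 to 45, with a point for each library and the anticodon shaded. Lys-CTT points stand high at base 35 and Lys-TTT points at base 33, and base 41 is used by Lys-CTT in 2.40% to 9.68% of 5′ fragments.

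Lys-CTT had a further end at base 41, in the anticodon stem. It held 4.04%, 2.40% and 9.68% of 5′ fragments in mutant control, heat shock and recovery, against 5.85%, 5.77% and 7.95% in the heterozygotes. Lys-TTT had 1 such read in the 6 libraries, in heterozygote recovery. The means were 5.95% ± 2.62 and 0.0100% ± 0.0245 (SD, n = 6), higher for Lys-CTT in 6 of 6 libraries (exact paired permutation p = 0.031, adjusted 0.0625). Reads of 36 to 50 nt, which include these, made up 7.37% ± 2.78 of Lys-CTT and 1.09% ± 0.484 of Lys-TTT reads, again higher for Lys-CTT in 6 of 6 libraries with the same exact p. Reads of 36 nt and longer were also listed with base changes, and shorter reads almost only as exact matches. These shares therefore set reads of unlike listing rules against each other. In mutant control, 492 of the 542 Lys-CTT 5′ fragments ending at base 41 were the exact sequence. The end at base 41 was set by no independent rule, as given above, so its p-value is descriptive. Among Lys-CTT reads that ended at base 41, 87 of 1404 (6.20%) started at bases 2 to 12 rather than at base 1. Among those that ended at base 35 this was 130 of 22439 (0.579%). Listed sequences were 30 nt or longer, so the end at base 35 allowed fewer of these starts than the end at base 41. The 2 shares therefore cover unlike windows of starts. Reads of 51 nt, the longest length listed, were rare. They averaged 0.217% ± 0.137 of Lys-CTT and 0.0769% ± 0.0480 of Lys-TTT reads (SD, n = 6), higher for Lys-CTT in 4 of 6 libraries (exact paired permutation p = 0.125).

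Few 3′ fragments were listed for either isoacceptor. Reads of 35 nt and shorter were listed almost only as exact matches, so 3′ fragments with bases past the last gene base could be missing. Reads that reached base 72 or the last base numbered 221 for Lys-CTT and 46 for Lys-TTT over all libraries. Lys-CTT 3′ reads started most often at base 34 (59 reads), followed by base 29 (34 reads) and base 42 (26 reads). Start base 34 adjoins the less used Lys-CTT end at base 33. Lys-TTT 3′ reads started most often at base 42 (17 reads), the start of the 3′ sequence printed above, and at base 39 (10 reads). Listed sequences were 30 nt or longer, so 3′ reads with starts much past base 42 could not be listed. The start counts of both isoacceptors are therefore cut short on that side. The share of 3′ fragments averaged 0.876% ± 0.247 for Lys-CTT and 0.501% ± 0.209 for Lys-TTT (SD, n = 6), a difference in 5 of 6 libraries that did not pass the test (exact paired permutation p = 0.09375).

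Single fragments followed these ends. The Lys-CTT fragment of bases 1 to 35 had 11592, 2909 and 444 reads in mutant control, heat shock and recovery, against 1080, 3359 and 2925 reads in the heterozygotes. It averaged 78.3% of Lys-CTT reads. Its mutant control count was 17.2% of that whole library. The fragment of bases 1 to 33 had 1142, 415 and 60 reads in the mutants, against 250, 574 and 597 reads in the heterozygotes. The fragment of bases 1 to 41 had 492, 79 and 51 reads in the mutants, against 83, 229 and 290 reads in the heterozygotes. The next, bases 2 to 35, lacks the first base and had 62, 21 and 1 reads in the mutants, against 2, 13 and 10 reads in the heterozygotes. Among mutant libraries the control library was thus the highest in each of the 4 fragments, as it was in total depth.

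The Lys-TTT fragment 1-33 of the A7 copies had 1657, 1146 and 250 reads in mutant control, heat shock and recovery, against 514, 1104 and 1038 reads in the heterozygotes. Its longer form, 1-34, had 298, 186 and 92 reads in the mutants, against 123, 302 and 389 reads in the heterozygotes. The G7 copy had 207, 180 and 46 reads of 1-33 in the mutants, against 82, 184 and 137 reads in the heterozygotes. Its 1-34 form had 42, 38 and 22 reads in the mutants, against 8, 43 and 48 reads in the heterozygotes. The G7 copy, 1 of 6 Lys-TTT genes, supplied 11.2%, 14.3% and 16.3% of Lys-TTT 5′ fragments in the mutants and 12.4%, 14.1% and 11.4% in the heterozygotes, with no common direction between the genotypes. The correction for C read at A, described below, was not applied to these shares. If short A7 reads were undercounted in mutants, the mutant G7 shares are too high.

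Mutants and heterozygotes were then compared over all 22 isoacceptor features that passed the count minimum, both lysine isoacceptors among them. Lys-CTT was 0.55 ± 0.34 higher in mutants (log2 difference ± SE, 3 libraries of each genotype, edgeR adjusted p = 0.224) and Lys-TTT 0.35 ± 0.30 (edgeR adjusted p = 0.390). Neither passed the adjusted threshold of 0.05, which 6 of 22 features (27.3%) passed. The SE was derived from the edgeR F value, with a spread pooled over features, and not from the 3 libraries alone. Within conditions, TMM-scaled Lys-CTT differed by 1.40 (95% interval 1.33 to 1.48) in control flies, 0.10 (0.04 to 0.17) after heat shock and 0.16 (0.04 to 0.29) in recovery. The control pair of libraries held the largest Lys-CTT difference of the 3 pairs, at 1.04 with RLE size factors, and the heat shock and recovery values changed sign under other scalings. Lys-TTT differed by -0.21 (-0.33 to -0.09), 0.31 (0.21 to 0.41) and 0.96 (0.80 to 1.11) in the same order. These were -0.57, 0.14 and 1.08 with RLE size factors and -0.53, 0.21 and 0.48 with total counts. The Lys-TTT value in control flies was 0.01 once short reads were corrected for a base change described below, whereas the other pair stayed positive. Without the mutant control library the fitted Lys-CTT difference was -0.06 (edgeR adjusted p = 0.850), and without heterozygote control it was 0.017 (edgeR adjusted p = 0.965). It passed the threshold without mutant recovery, the shallowest library, at 0.80 (edgeR adjusted p = 0.0317), and without heterozygote recovery, at 0.79 (edgeR adjusted p = 0.0437).

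**Figure D4:**
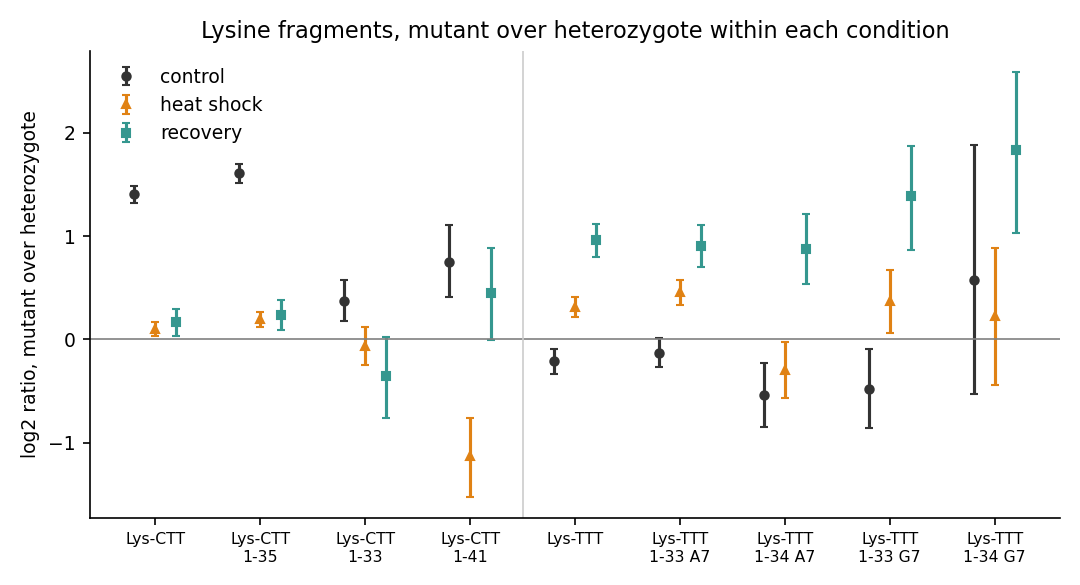
Log2 ratio of TMM-scaled reads, mutant over heterozygote, within control, heat shock and recovery, for both lysine isoacceptors and their main fragments, with exact 95% counting intervals. Names give the first and last base and, for Lys-TTT, the base at position 7. Lys-CTT and its 1-35 fragment stand highest in control flies, and Lys-TTT and its fragments stand highest in recovery.

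Of the 8 named fragments, 6 passed the count minimum among 39 tested sequences of all tRNAs, and none of the 6 passed the threshold between genotypes, which 6 of 39 sequences (15.4%) did. Lys-CTT 2-35 and the G7 form of Lys-TTT 1-34 were under the minimum. Lys-CTT 1-35 was 0.86 ± 0.46 higher in mutants (edgeR adjusted p = 0.257), or 0.35 without mutant control and 0.15 without heterozygote control, and 1-33 was 0.18 ± 0.35 higher (edgeR adjusted p = 0.722). Lys-CTT 1-41 stood at 0.23 ± 0.52 (edgeR adjusted p = 0.728). The Lys-TTT fragments 1-33 A7 and 1-33 G7 were each 0.60 higher (SE 0.33 and 0.42, edgeR adjusted p = 0.257 and 0.343), and 1-34 A7 0.20 ± 0.39 higher (edgeR adjusted p = 0.722). With the correction for C read at A described below, 1-33 A7 stood at 0.60 and 1-33 G7 at 0.36. The signs of 1-33 and 1-41 of Lys-CTT and of 1-34 A7 turned negative when total counts were used for scaling.

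Some end positions differed between the genotypes in a common direction, in a design of 3 pairs that cannot give an exact p under 0.25. The share of Lys-CTT 5′ fragments ending at base 35 was 11.3, 4.88 and 2.67 points higher in mutants in control, heat shock and recovery. The difference in the share ending at base 33 was -8.88, -1.54 and -4.85 points in the same order, so the mutants had relatively more of the longer form in 3 of 3 conditions. For Lys-TTT the base 33 share was 3.11, 7.09 and 0.158 points higher in mutants. Each of these 3 had an exact paired permutation p of 0.25, with Benjamini-Hochberg 0.75 over 24 measures. Random signs alone give a common direction in 3 pairs with probability 0.25, so some of 24 measures would show it. In recovery the Wilson intervals of the genotypes overlapped for Lys-CTT base 35 (74.6 to 81.4 and 74.1 to 76.8). They also overlapped for Lys-TTT base 33 (66.3 to 75.0 and 68.4 to 72.8). For Lys-CTT base 33 they did not (8.30 to 13.4 and 14.3 to 16.6). The Lys-TTT share ending at base 34 differed by -2.43 and -6.35 points in control and heat shock and by 0.995 points in recovery (exact paired permutation p = 0.5). The Lys-CTT end at base 41 differed by -1.80 and -3.38 points in control and heat shock and by 1.73 points in recovery, under the unlike listing rules given above.

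Both Lys-TTT copies could be compared for the choice between bases 33 and 34. Among A7 reads of 1-33 and 1-34, the 1-34 form made up 15.2%, 14.0% and 26.9% in mutant control, heat shock and recovery, against 19.3%, 21.5% and 27.3% in the heterozygotes. The share was highest in recovery in both genotypes and lower in mutants in 3 of 3 conditions, with differences of -4.07, -7.52 and -0.359 points (exact paired permutation p = 0.25). In the G7 copy the share was 16.9%, 17.4% and 32.4% in the mutants, against 8.89%, 18.9% and 25.9% in the heterozygotes. It was again highest in recovery, and the mutants were lower in 1 of 3 conditions, with only 8 reads of the longer form in heterozygote control. Over the 6 libraries the copies averaged 20.1% for G7 and 20.7% for A7, a difference of -0.621 ± 5.64 points that was positive in 3 of 6 libraries (SD, exact paired permutation p = 0.844).

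**Figure D5:**
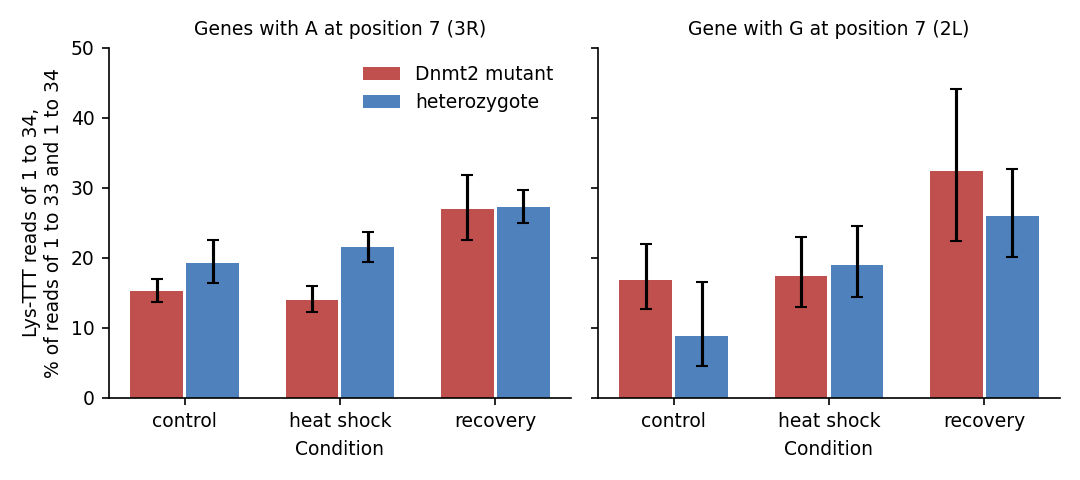
Lys-TTT reads of bases 1 to 34 as a percentage of reads of 1 to 33 and 1 to 34, for genes with A at position 7 (left) and the gene with G there (right), with 95% Wilson intervals. Bars stand for single libraries, mutants left of heterozygotes. In each panel the recovery bars are the highest of both genotypes.

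Heat shock and control were compared in the same fit, with genotype as a term. Lys-CTT stood at -0.57 ± 0.42 (log2 difference ± SE from the edgeR F value, 2 libraries of each condition, edgeR adjusted p = 0.265) and Lys-TTT at -0.01 ± 0.36 (edgeR adjusted p = 0.972). Neither passed the threshold, against 7 of 22 features (31.8%) that did, and the median of all 22 features was -0.39. With RLE size factors that median was 0.05, Lys-CTT stood at -0.094 and Lys-TTT at 0.40, so the sign of Lys-TTT depends on the scaling. Lys-CTT changed by -1.17 (-1.23 to -1.12) in mutants, and by 0.13 (0.04 to 0.22) in heterozygotes, where the sign turned with total counts. The mutant value was -0.64 with RLE size factors. Lys-TTT changed by 0.27 (0.18 to 0.37) in mutants and by -0.25 (-0.38 to -0.13) in heterozygotes, where the sign turned with RLE size factors. The mutant value was then 0.81. The difference in heat response between the genotypes has no test here, because each group has 1 library. Without the mutant control library the fitted Lys-CTT change was 0.22 (edgeR adjusted p = 0.603). Of the fragments tested, 4 of 39 (10.3%) passed the threshold for heat shock and none of the 6 lysine fragments did, with values of -1.13 ± 0.63 for Lys-CTT 1-41 to -0.15 ± 0.51 for Lys-TTT 1-33 G7 (edgeR adjusted p = 0.285 and 0.816).

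Recovery was compared with control and with heat shock. Lys-CTT stood at -0.67 ± 0.42 (edgeR adjusted p = 0.423) and Lys-TTT at 0.32 ± 0.37 (edgeR adjusted p = 0.536) in recovery over control. None of the 22 features passed in edgeR (0%), 1 had an unadjusted p under 0.05, and DESeq2 called none. Over heat shock, Lys-CTT stood at -0.10 ± 0.41 (edgeR adjusted p = 0.933) and Lys-TTT at 0.34 ± 0.36 (edgeR adjusted p = 0.515), where 1 of 22 features (4.55%) passed. Within mutants Lys-TTT was 0.91 (0.75 to 1.06) higher in recovery than in control, or 1.48 with RLE size factors. In heterozygotes it stood at -0.26 (-0.39 to -0.14), and the sign turned with total counts. Without mutant recovery the fitted Lys-TTT values were -0.02 over control and -0.32 over heat shock.

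Other tRNAs with these wobble bases were set beside the lysines. Of the tRNAs known to carry the thiolated uridine at position 34 (Lys-TTT, Glu-TTC and Gln-TTG), 2 of 3 passed the count minimum and none of the 2 passed the threshold in any of the 4 comparisons. Their C34 partners (Lys-CTT, Glu-CTC and Gln-CTG) were all tested, with none past the threshold either. Over all features the shares were 27.3%, 31.8%, 0% and 4.55%, as above. Sequences listed at genes of both glutamine isoacceptors formed a feature of their own, Gln-CTG/Gln-TTG, outside these counts. It stood at 2.32 ± 0.32 between genotypes (edgeR adjusted p = 1.12e-07) and at -0.94 ± 0.36 for heat shock (edgeR adjusted p = 0.039), past the threshold in both. These p-values rest on a spread shared over features, in libraries without replicates. Between genotypes the medians of the U34 and C34 lists were 0.06 and 0.42 on the log2 scale, beside 0.07 over all 22 features, and for heat shock they were 0.31 and -0.24, beside -0.39. Of the Dnmt2 substrates, 2 of 3 were tested. Between genotypes they stood apart in sign, with Asp-GTC at -0.80, past the threshold (edgeR adjusted p = 0.031), and Gly-GCC at 0.68 (edgeR adjusted p = 0.224), beside 27.3% of features called. For heat shock Asp-GTC was higher, at 1.26 (edgeR adjusted p = 0.0046), and Gly-GCC stood at -0.10 (edgeR adjusted p = 0.876), beside 31.8% called. Over the 6 libraries, the log2 scaled level of Lys-CTT was most like those of the glutamine sequences listed at both Gln-CTG and Gln-TTG genes (Pearson r = 0.758), of Ser-AGA (0.755) and of Met-CAT (0.720), as a description in libraries that share depth and scaling. For Lys-TTT these were Gly-TCC (0.473), the shared glutamine sequences (0.298) and Gly-GCC (0.210). The lysine isoacceptors had r = -0.214 with each other.

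Mutant libraries carried C at some positions where the gene has A, which bears on these counts because reads of 35 nt and shorter were listed almost only as exact matches. Lys-CTT had no read under 36 nt with a base change, and Lys-TTT had 3. Among Lys-CTT reads of 36 nt and longer, A29C (A at position 29 in the gene, C in the read) was found in 35 of 672 (5.21%), 4 of 121 (3.31%) and 3 of 61 (4.92%) reads of mutant control, heat shock and recovery. In the heterozygotes it was found in 0 of 101, which allows a share of up to 2.97%, and in 1 of 311 and 2 of 376 reads. In 51-nt reads of all tRNAs with A at position 7, C was read in 16.1%, 14.7% and 15.2% in mutants, against 0.221%, 0.185% and 0% in heterozygotes (0 of 1112, which allows up to 0.270%, in the last library). At position 24 it was 15.2%, 12.3% and 12.4% in mutants, against 0% (0 of 476, up to 0.630%), 0.119% and 0.0871% in heterozygotes. This difference between the libraries runs with genotype, and the 2 cannot be told apart. Its source was not tested. Position 7 is A in the Lys-TTT A7 copies, so exact short reads of these copies undercount the mutants if short reads had the same rate. For Lys-CTT the correction used position 29 of 51-nt reads, with C in 6 of 82 (7.32%), 2 of 39 (5.13%) and 0 of 5 mutant reads, the last allowing up to 60%, so the Lys-CTT count of mutant recovery stayed uncorrected. On these assumptions the mutant counts were 14625, 3702 and 573 for Lys-CTT and 2650, 1833 and 485 for Lys-TTT. The Lys-CTT over Lys-TTT differences between genotypes were then 1.50, -0.33 and -0.99 in control, heat shock and recovery, with the signs given above.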

How the data were processed

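Small RNAs of 25 to 70 nt were gel-purified, per the labels' protocols, and sequenced in 6 libraries. Per the file headers, each deposited count is the raw number of reads of a sequence at a tRNA gene. Bowtie and the build dm3 stand in the submitters' processing notes; other settings were not given in the sources used here. Listed sequences were 30 to 51 nt, so a list's total is part of a library and not its depth. Gene names of all 19 lysine genes matched RefSeq tables of another build, so no coordinates are given. Lys-CTT sequences are not reported here.

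Longer reads are also listed in shortened form at genes that lack their last bases, and such counts were subtracted so that each read counted once. Reads were placed on rebuilt genes with up to 3 mismatches; 1 lysine read could not be placed. Features (amino acid and anticodon) and single sequences went into edgeR 4.0.16 under R 4.3.3 (glmQLFTest, TMM, genotype and treatment as additive terms over 6 libraries, 2 residual degrees of freedom, Benjamini-Hochberg over all tested, 2-sided), for features whose CPM equalled 10 or more counts of the smallest library in at least 3 libraries. No group was replicated, so the spread (common biological coefficient of variation 0.231) was pooled over features and includes any difference in response between genotypes. The median prior degrees of freedom of the isoacceptor fit were infinite, so its p-values took their spread from all tested features together. Library pairs have exact conditional binomial intervals and shares 95% Wilson intervals; a count of 0 is given a limit of 3 counts. Shares were compared by exact sign-flip permutation over pairs (Python 3.11.15, scipy 1.17.1). Alternatives were RLE factors, total counts, DESeq2 1.42.0, no filter, no 51-nt reads, each distinct sequence once, correction for C read at A, and each library left out. Named fragments are the 4 sequences of each isoacceptor with the highest mean share, and the 3 most alike features were named by Pearson r. The members and lists were chosen with earlier results of these data known.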

Additional observations from a re-analysis of the deposited data

Results flagged for a closer look

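The ratio of Lys-CTT to Lys-TTT moved in opposite directions between groups. Listing here required counting intervals of 2 groups on opposite sides of 0. It also required opposite signs once the base change to C was allowed for. Both were conditions of listing, so neither is added evidence for the values below. Heat shock over control gave -1.45 in mutants and 0.38 in heterozygotes on the log2 scale. Recovery over control gave -2.15 in mutants and 0.26 in heterozygotes. Mutant over heterozygote gave 1.61 in control flies, -0.21 after heat shock and -0.80 in recovery. The mutant control library enters the mutant values over control and the genotype value in control flies. The mutant recovery library, of 5113 reads, enters -2.15 and -0.80. The differences between the groups were not tested, because each group has 1 library.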

How the results depend on the processing

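The 8 isoacceptor results kept their direction and their side of the threshold in 50 of 56 other settings and 35 of 48 fits with a library left out, and the 12 fragment results in 31 of 36 and 58 of 72. Neither isoacceptor passed the threshold in any of the 56 settings, and Lys-CTT passed it in 2 fits with a library left out, as given above. In recovery over heat shock Lys-CTT was positive with total counts (0.43), with correction for C read at A (0.017), without 51-nt reads (0.000253) and with each distinct sequence once (0.025). Lys-TTT in heat shock over control was 0.40 with RLE size factors and 0.40 with DESeq2. Between genotypes, total counts gave -0.31 for Lys-CTT 1-33, -0.27 for 1-41 and -0.29 for Lys-TTT 1-34 A7, and the correction gave -0.00465 for Lys-CTT 1-41. Total counts gave 0.060 for Lys-TTT 1-33 G7 in heat shock. With the correction the mean genotype difference in the Lys-CTT share of lysine reads was -0.800 points. The cause of these sign changes was not tested.

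With each library left out in turn, Lys-CTT ranged from -0.059 to 0.96 between genotypes, -1.02 to 0.22 for heat shock, -0.98 to 0.43 for recovery over control and -0.37 to 0.28 for recovery over heat shock. Lys-TTT ranged from -0.30 to 0.58 for heat shock, -0.023 to 1.03 for recovery over control and -0.32 to 1.01 for recovery over heat shock. Between genotypes, Lys-CTT 1-33 ranged from -0.27 to 0.38, 1-41 from -0.41 to 0.82, Lys-TTT 1-34 A7 from -0.37 to 0.42 and 1-33 G7 from -0.00686 to 0.99. For heat shock, Lys-CTT 1-35 ranged from -1.51 to 0.016, Lys-TTT 1-33 A7 from -0.61 to 0.060, 1-34 A7 from -0.57 to 0.12 and 1-33 G7 from -0.66 to 0.54. Ranges that kept their sign between genotypes were 0.094 to 0.55 for Lys-TTT and 0.15 to 1.14 for Lys-CTT 1-35. Lys-TTT 1-33 A7 also kept its sign between genotypes, at 0.21 to 0.81. In heat shock such ranges were -2.02 to -0.15 for Lys-CTT 1-41 and -1.06 to -0.34 for Lys-CTT 1-33. Without 1 condition the Lys-CTT share difference ranged from -7.85 to 8.23 points. The difference in the end at base 35 ranged from 78.1 to 80.4 points, and its exact p was 0.0625, the smallest that 5 pairs allow.

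For pairs of libraries, settings chosen after seeing the data turned the sign of 7 values whose counting interval excluded 0. Total counts gave -0.00392 and -0.31 for Lys-CTT, mutant over heterozygote, after heat shock and in recovery. In heterozygotes they gave -0.016 for Lys-CTT in heat shock over control, 0.56 in recovery over heat shock and, for Lys-TTT, 0.28 in recovery over control. RLE size factors gave -0.074 for Lys-CTT, mutant over heterozygote after heat shock, and 0.10 for Lys-TTT, heat shock over control in heterozygotes. The correction gave 0.0095 for Lys-TTT, mutant over heterozygote in control flies. Signs also turned for 3 values whose interval held 0: with total counts Lys-CTT in recovery over heat shock in mutants (0.25) and in recovery over control in heterozygotes (0.55, and 0.098 with RLE size factors), and Lys-TTT in recovery over heat shock in heterozygotes (0.68).

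Features tested numbered 22, with 24 after the correction, 25 with each distinct sequence once, 48 without a filter and 20 without 51-nt reads. With a library left out they numbered 19 to 29. Between genotypes and for heat shock, 7 and 8 were called after the correction, 8 and 6 by DESeq2, and 7 and 6 with RLE size factors. The number of features called, the background to the lysine results, was 6 between genotypes, with 3 without a filter, 2 without 51-nt reads and 1 to 8 with a library left out. It was 7 for heat shock, with 3 by total counts and 1 to 9 with a library left out. For recovery over heat shock it was 1, with 5 after the correction, 5 with each distinct sequence once, 3 without 51-nt reads, 0 by total counts and 0 to 3 with a library left out.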
